A study of Mus musculus with 6 samples.

Results

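The 10 genes described here encode subunits of the mouse SWI/SNF chromatin remodelers (also called BAF complexes). These are the ATPases Smarca2 and Smarca4, the ARID-domain subunits Arid1a and Arid2, and the subunits Smarcb1, Smarcc1, Smarcc2, Smarce1, Smarcd1 and Smarcd2. They were taken by gene symbol, with no threshold on a measured value, and all 10 were found among the 38926 genes in the count lists. RNA was sequenced from hematopoietic stem cells (HSCs) sorted by surface markers from fetal liver at E14.5 (midgestation). The 3 control samples were Vav-Cre; Dpy30F/+, with a floxed and an intact allele of Dpy30, and the 3 knockout samples were Vav-Cre; Dpy30F/-, with a floxed and a null allele. Both groups therefore carried the Cre transgene, which is driven by a promoter active in blood-forming cells, and a floxed allele, so the reference is heterozygous. Each of 3 litters gave 1 sample of each genotype, and the sample numbers are those of the litters. Values given 3 at a time follow litters 1, 2 and 3. How many embryos went into a sample is not given in the sources used here, so p-values measure the spread between these samples. The question addressed is whether transcripts of a second chromatin machinery differed when Dpy30, a shared subunit of the SET1/MLL histone H3 lysine 4 methyltransferases, was lost.

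SWI/SNF complexes use ATP to slide or evict nucleosomes and so open promoters and enhancers to transcription factors. Each complex holds 1 ATPase, either Smarca2 (BRM) or Smarca4 (BRG1), on a scaffold of Smarcc subunits. Canonical BAF is marked by an ARID1 subunit such as Arid1a, and the polybromo form PBAF by Arid2, Pbrm1, Brd7 and Phf10. Both of these forms also hold Smarcb1 and Smarce1. Blood stem cells are known to depend on these complexes, and alternative members of a family compete for the same place in the complex.

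The promoters of the ATPase pair are shown because Smarca2 and Smarca4, alternative members at 1 place in the complex, were the 1 pair whose ratio did not overlap between the genotypes, and because promoters rich in the dinucleotide CG are the usual sites of histone H3 lysine 4 trimethylation. Each line gives the 250 bases before the start site from RefSeq (GRCm38.p6, plus strand, chr19:26604910-26605159 for Smarca2 and chr9:21615919-21616168 for Smarca4), with CG in capitals. GENCODE M21 starts Smarca2 earlier, at chr19:26605050, so the end of its stretch lies inside the gene as annotated there.
Smarca2: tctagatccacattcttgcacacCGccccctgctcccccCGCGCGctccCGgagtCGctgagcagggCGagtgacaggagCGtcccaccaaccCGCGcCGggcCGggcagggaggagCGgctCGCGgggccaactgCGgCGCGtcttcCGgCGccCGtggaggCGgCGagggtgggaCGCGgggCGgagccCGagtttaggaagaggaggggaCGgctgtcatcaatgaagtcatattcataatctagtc
Smarca4: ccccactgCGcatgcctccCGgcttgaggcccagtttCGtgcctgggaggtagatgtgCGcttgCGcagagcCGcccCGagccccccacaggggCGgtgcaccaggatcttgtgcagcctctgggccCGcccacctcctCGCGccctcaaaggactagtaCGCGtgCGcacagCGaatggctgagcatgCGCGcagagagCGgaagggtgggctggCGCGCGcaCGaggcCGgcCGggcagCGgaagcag
Smarca2 held 28 CG and Smarca4 25. Promoters were matched for 8 of the 10 genes, with 9 start sites. Their CG counts ran from 4 in Smarcd2 to 40 in Smarcc2, with a median of 25, where the median over all 32851 promoters of that length in the table was 6. The windows of Smarcd2 (chr11:106267633-106267882) and Smarcc1 (chr9:110131774-110132023) lie wholly inside the genes as GENCODE M21 places them. So does an Arid1a window (chr4:133753986-133754235). They precede internal start sites, and the only window with TATAAA was that of Smarcd2. The motif GGGCGG (either strand) stood in 8 of these 9 windows and in 32.7% of all promoters, TATAAA in 1 of 9 and 12.4% of all, and CCGGAAG in 2 of 9 (Smarca2 and Smarcc1) and 6.91% of all. CG is part of GGGCGG and CCGGAAG, so their presence is not independent of the CG count. The promoters at large were not limited to genes expressed in these samples. Neither the CG counts nor the motif shares are thus shown to be particular to SWI/SNF genes. Each match is a description of the letters only.

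Gene counts per library came to 35.6 to 43.4 in controls and 31.9 to 36.7 in knockouts, in units of 1000000, of which mitochondrial genes took 54.4% to 67.7% and 49.2% to 55.7%. The SWI/SNF genes were well covered, with 260 counts at the least (Smarcd1 in knockout 2, a counting error of 6.2%) and 13673 at the most. Dpy30 itself had 24.6, 24.2 and 31.6 counts per 1000000 (CPM, with libraries scaled by the trimmed mean of M values) in the controls and 7.93, 5.95 and 13.7 in the knockouts (edgeR log2 fold change -1.55, SE 0.464, adjusted p = 0.672). The knockouts were thus all below the controls, but kept part of the transcript. All 12 HSC markers listed had counts, although Ly6a was at most 1.71 CPM in controls and 7.44 CPM in knockouts. Their summed level was 727 to 772 CPM in controls and 931, 1040 and 315 CPM in the knockouts, and knockout 3 was the lowest sample for 10 of the 12. The 8 macrophage markers summed to 262 to 533 CPM in controls and 718, 313 and 1400 in the knockouts. Mrc1 gave most of that sum in the controls, and without it the other 7 summed to 82.9, 174 and 133 CPM in the controls and 408, 287 and 1030 CPM in the knockouts. Of the 8, Csf1r, C1qb, Cd68 and Lyz2 were higher in every knockout than in every control (edgeR log2 fold changes 1.66 to 2.33, adjusted p 0.622 to 0.672). This was so for 6.39% of all tested genes. The 6 granulocyte markers summed to 45.6 to 119 CPM in controls and 68.3, 140 and 371 in the knockouts. The 4 endothelial markers, all present, summed to 760 to 1230 CPM in controls and 1030, 110 and 1270 in the knockouts. The 6 erythroid markers found in the files summed to 276 to 551 CPM in controls and 220 to 813 in knockouts, and the 4 megakaryocyte markers to 46.7 to 87.8 and 50.6 to 70.1. Summed markers of mast cells (at most 17.9 CPM), B cells (1.97), T cells (16.8), hepatocytes (21.3) and stroma (15.6) were lower, with Cma1, Tpsb2, Pax5, Cd3e, Cd3g, Trbc1 and Dlk1 at 0 counts throughout. Knockout 3 had the lowest HSC and the highest macrophage and granulocyte sums, and knockout 2 the lowest endothelial sum. Values without 1 of them are given for some genes below, and ranges with each sample left out follow near the end. In bulk samples, fewer cells of a type and less RNA per cell cannot be told apart.

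None of the 10 SWI/SNF genes passed the test between genotypes, and their log2 fold changes lay between -0.49 and 0.70. In edgeR's quasi-likelihood test with Benjamini-Hochberg adjustment over 13646 genes, 0 of the 10 had an adjusted p under 0.05 (the smallest was 0.753), and 1, Smarca2, had an unadjusted p under 0.05, where 0% and 6.51% of all tested genes did. DESeq2 gave the same counts, 0 at an adjusted and 1 at an unadjusted p under 0.05, where 1.03% and 9.41% of its genes were called. The median log2 fold change, knockout over control, was -0.03 over the 10 genes and 0.01 over all tested genes. All 10 lay within a log2 fold change of 1 either way, as did 73.6% of all tested genes. The summed level of the 10 was 1208, 1093 and 1256 CPM in the controls and 1230, 1304 and 1099 CPM in the knockouts, so the groups overlapped.

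**Figure D1:**
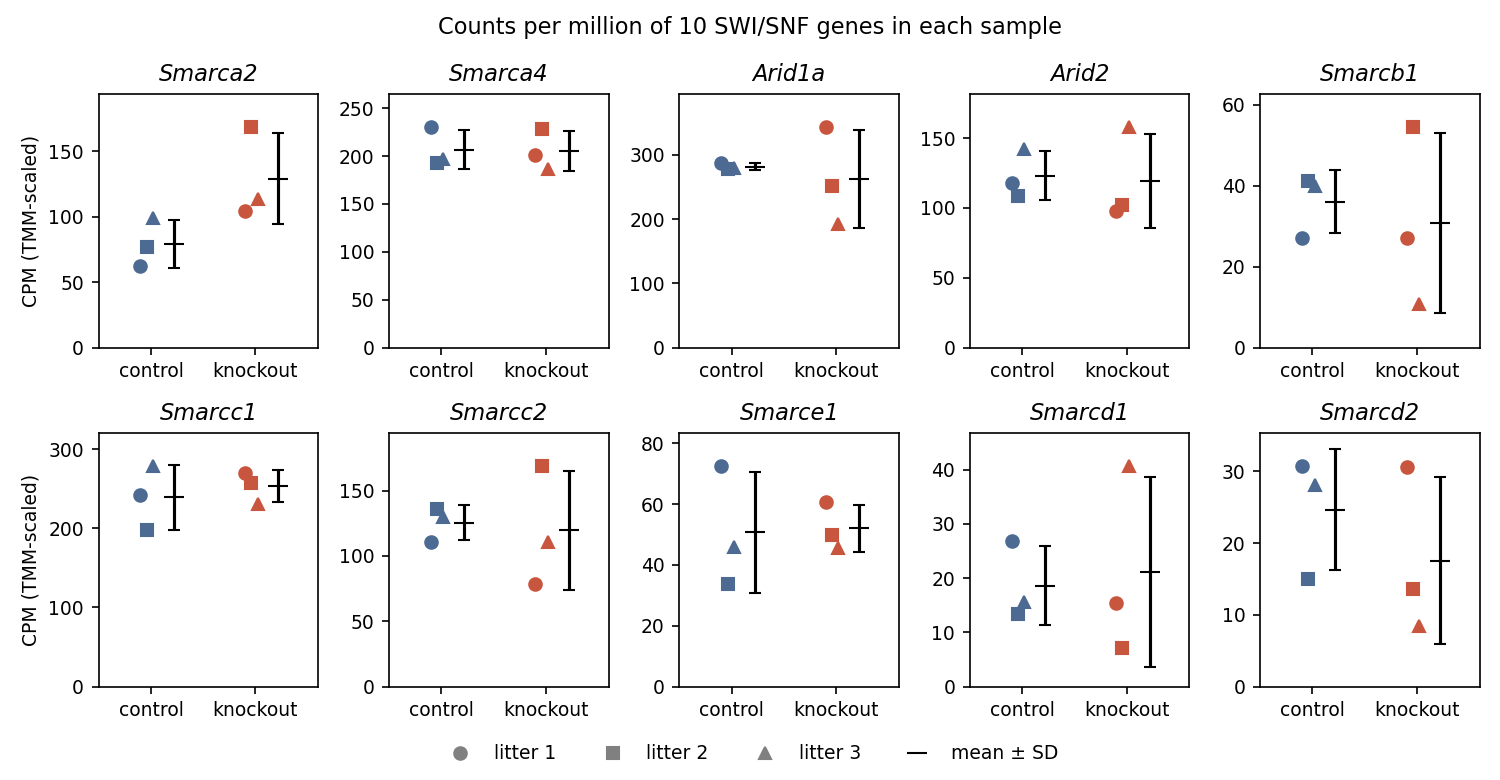
Expression of each of the 10 SWI/SNF genes in CPM (vertical axes, linear and starting at 0) in 3 control and 3 knockout samples; marker shapes give the litter, and black bars the mean and SD. For Smarca2 every knockout point (105 to 169 CPM) lies above every control point (62.1 to 99.0 CPM); in the other 9 panels the groups overlap.

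Of the ATPases, Smarca2 (ENSMUSG00000024921.17; GRCm38, chr19:26605050-26778322, plus strand) had 62.1, 76.9 and 99.0 CPM in the controls and 105, 169 and 114 CPM in the knockouts. The groups did not overlap, which was so for 6.39% of all tested genes in this direction and for no other of the 10 SWI/SNF genes, against 14.1% of tested genes in either direction. Means were 79.3 ± 18.6 CPM for the controls and 129 ± 34.8 CPM for the knockouts (SD over 3 samples; two-sided exact permutation p = 0.1 on log2 CPM, the smallest the design allows). The fitted ratio was 1.63 (95% interval 1.03 to 2.56; edgeR log2 fold change 0.70, SE 0.284, unadjusted p = 0.038, adjusted p = 0.753). Within litters the difference in log2 CPM was 0.75, 1.14 and 0.20. Smarca2 was the only 1 of the 10 to be higher in the knockout of all 3 litters, as were 12.3% of all tested genes. Its edgeR log2 fold change was 0.46 without knockout 2, the sample with the highest Smarca2 level and the lowest endothelial markers, and 0.80 without knockout 3, the sample with the lowest HSC markers. The 8 macrophage markers overlapped in sum between genotypes, at 262 to 533 CPM in controls and 718, 313 and 1400 CPM in the knockouts. Without Mrc1, a marker set apart after its values were seen, the sums did not overlap. They were 82.9, 174 and 133 CPM in the controls and 408, 287 and 1030 CPM in the knockouts. Knockout 2, the highest in Smarca2, was thus the lowest knockout in these markers. The part of these markers in the result was not tested. The unadjusted p was 0.132 without control 1, 0.0973 without control 2, 0.132 without knockout 2 and 0.0798 with upper-quartile factors, and it stayed under 0.05 in the other 9 alternatives.

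Smarca4 (ENSMUSG00000032187.16; chr9:21616169-21704230, plus strand), the ATPase with the higher count, had 231, 193 and 197 CPM in the controls and 201, 228 and 187 CPM in the knockouts. Both the order of the samples and the group means, 207 ± 20.8 and 205 ± 21.3 CPM (SD, n = 3 each), gave no separation. The fitted ratio was 0.992, with a 95% interval of 0.725 to 1.36 (edgeR log2 fold change -0.011, SE 0.197, adjusted p = 0.995). A true ratio within these bounds cannot be told from 1 with these samples.

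The balance between the ATPases was followed as a ratio within each sample, which needs no scaling between libraries. Smarca2 counts were 0.269, 0.399 and 0.502 of Smarca4 counts in the controls and 0.522, 0.74 and 0.61 in the knockouts. Every knockout ratio was above every control ratio, though knockout 1 and control 3 were nearly equal. On the log2 scale the controls averaged -1.40 ± 0.45 and the knockouts -0.70 ± 0.25 (SD over 3 samples), a difference of 0.71 (exact permutation p = 0.1, the smallest possible, and 0.4 after Benjamini-Hochberg adjustment over the 4 pairs compared). The difference within litters was 0.95, 0.89 and 0.28. Per kilobase of exon, Smarca2 stood at 0.235 to 0.439 of Smarca4 in controls and 0.456 to 0.646 in knockouts, so Smarca4 remained the more abundant ATPase transcript in every sample. The summed counts of the pair were 293, 270 and 296 CPM in the controls and 305, 398 and 301 CPM in the knockouts.

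**Figure D2:**
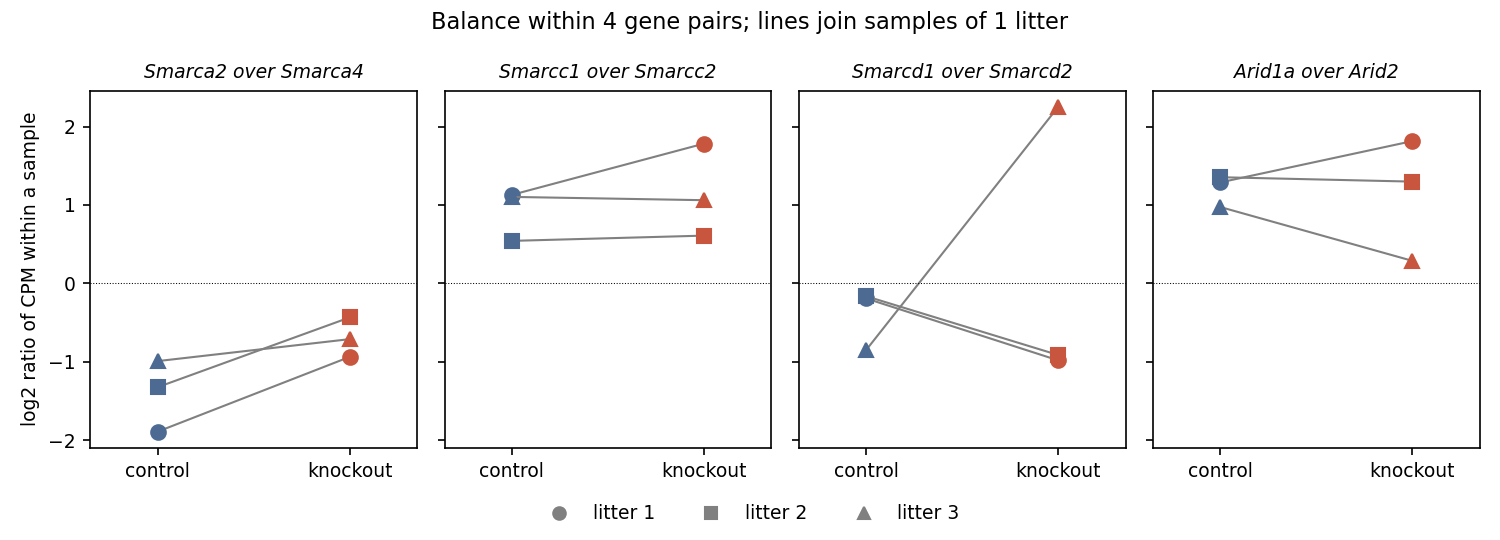
Log2 ratio of CPM (vertical axis) within each sample for 4 gene pairs in control and knockout samples; lines join samples of the same litter. The Smarca2 over Smarca4 ratio is higher in the knockout of each litter (by 0.95, 0.89 and 0.28), while the Smarcd1 over Smarcd2 ratio is lower in litters 1 and 2 and 3.10 higher in litter 3.

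The ARID subunits set the type of complex. Arid1a (ENSMUSG00000007880.16; chr4:133679008-133756769, minus strand), the DNA-binding subunit of canonical BAF, was even among controls at 288, 278 and 280 CPM, and spread over 344, 252 and 193 CPM in the knockouts. The knockout values lay on both sides of the controls, and the coefficient of variation (SD over mean) was 1.89% in controls and 29% in knockouts. The fitted ratio was 0.933 (95% interval 0.633 to 1.37, edgeR log2 fold change -0.10, adjusted p = 0.969). Without knockout 3 the log2 fold change was 0.093. Arid2 (ENSMUSG00000033237.19; chr15:96287518-96404992, plus strand), which marks PBAF, had 118, 109 and 142 CPM in the controls and 97.8, 102 and 158 CPM in the knockouts. Here the knockouts of litters 1 and 2 were the lowest samples and that of litter 3 the highest. Its fitted ratio was 0.971 (95% interval 0.641 to 1.47; edgeR adjusted p = 0.99). The log2 fold change of Arid2 was -0.043 with all samples, -0.29 without knockout 3 and 0.057 without knockout 2. An exon of Gm25397 overlaps those of Arid2 over 92 bases.

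Arid1a counts were 2.44, 2.55 and 1.96 times those of Arid2 in the controls and 3.52, 2.46 and 1.22 times in the knockouts. The knockouts thus held both the highest and the lowest ratio. The mean difference on the log2 scale was -0.07 (exact permutation p = 0.9; adjusted over the 4 pairs, 1), and 0.35 without knockout 3.

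Of the core scaffold, Smarcc1 had the highest mean level per length of the 10 genes. Smarcc1 (ENSMUSG00000032481.17; chr9:110117708-110240178, plus strand) had 242, 197 and 279 CPM in the controls and 270, 258 and 231 CPM in the knockouts. All 3 knockouts lay inside the control range, and the fitted ratio was 1.06 (95% interval 0.76 to 1.47; edgeR adjusted p = 0.971). Its paralog Smarcc2 (ENSMUSG00000025369.15; chr10:128459248-128490482, plus strand) had 110.5, 136 and 130 CPM in the controls and 78.6, 169 and 111 CPM in the knockouts. The knockouts again spanned more than the controls, with a fitted ratio of 0.953 (95% interval 0.59 to 1.54, edgeR adjusted p = 0.985). The log2 fold change of Smarcc2 was -0.069 with all samples, -0.40 without knockout 2 and 0.16 without knockout 1. Smarcc1 counts were 2.19, 1.46 and 2.15 times those of Smarcc2 in the controls and 3.44, 1.52 and 2.08 times in the knockouts, so the pair kept its order in every sample. The log2 difference between genotypes was 0.23 (exact permutation p = 0.7; adjusted over the 4 pairs, 1), and it turned to -0.09 without knockout 1.

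Smarcb1 (ENSMUSG00000000902.13; chr10:75896769-75921617, minus strand), a core subunit that contacts the nucleosome, had 27.1, 41.2 and 39.9 CPM in the controls and 27.1, 54.6 and 10.7 CPM in the knockouts. Litter 1 gave equal levels in both genotypes, and the lowest and highest samples were both knockouts. The fitted ratio was 0.853 with a wide 95% interval of 0.352 to 2.07 (edgeR log2 fold change -0.23, SE 0.554, adjusted p = 0.969), and the log2 fold change was 0.19 without knockout 3 and -0.93 without knockout 2. Smarce1 (ENSMUSG00000037935.16; chr11:99209047-99231017, minus strand), the HMG-domain subunit, had 72.6, 33.7 and 45.8 CPM in the controls and 60.6, 49.9 and 45.7 CPM in the knockouts. It was 1 of the 2 genes, with Smarcc1, whose knockouts varied less than the controls (14.8% against 39.3%). Knockout over control, the fit gave a ratio of 1.03 (95% interval 0.598 to 1.76; edgeR adjusted p = 0.993). A processed pseudogene, Smarce1-ps1, is annotated, and how reads were split between such copies is not given in the sources used here.

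**Figure D3:**
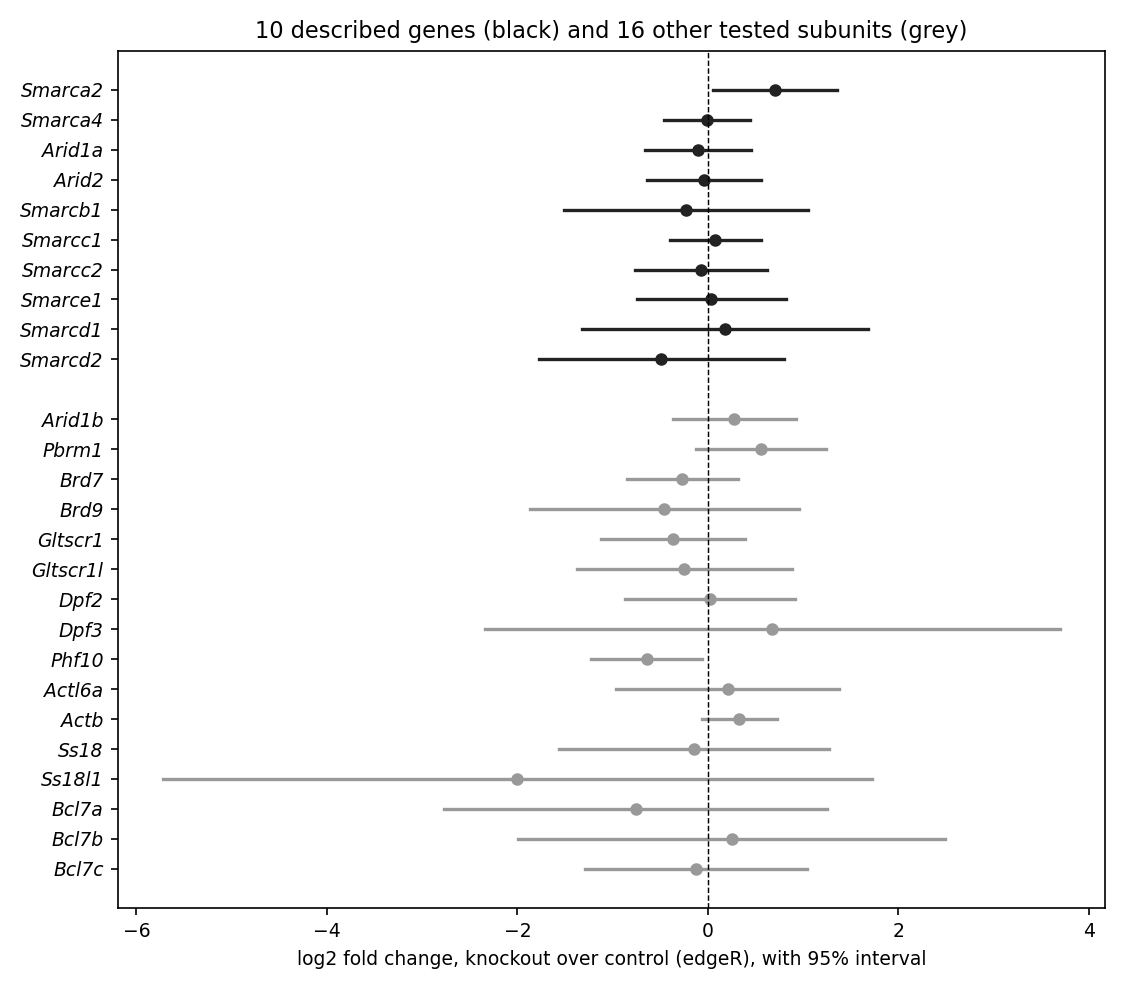
Log2 fold change, knockout over control, from edgeR (horizontal axis) for the 10 SWI/SNF genes described (black) and the 16 other tested subunits (grey); lines are 95% intervals, unadjusted. Intervals exclude 0 for Smarca2 (0.05 to 1.36) and Phf10 (-1.22 to -0.06), and neither gene passed after adjustment.

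Smarcd1 and Smarcd2, alternatives at 1 place in the complex, had the lowest mean levels per length. With Smarcb1 (72.1%), they had the largest coefficients of variation among knockouts (82.8% for Smarcd1 and 66% for Smarcd2). Smarcd1 (ENSMUSG00000023018.5; chr15:99702129-99713991, plus strand) had 26.9, 13.4 and 15.6 CPM in the controls and 15.5, 7.17 and 40.8 CPM in the knockouts. Knockout 2 was the lowest and knockout 3 the highest of all samples. The edgeR log2 fold change was 0.18 (SE 0.651, 95% interval -1.32 to 1.68, adjusted p = 0.981), and it turned to -0.70 without knockout 3. Exons of Gm17349 and Gm34939 overlap those of Smarcd1 on the other strand, over 287 and 183 bases, and with strandedness not given in the sources used here their reads cannot be told apart. Smarcd2 (ENSMUSG00000078619.10; chr11:106263179-106272972, minus strand), a subunit known for its role in granulocyte development, had 30.8, 15.1 and 28.1 CPM in the controls and 30.6, 13.6 and 8.51 CPM in the knockouts. Each knockout was below its litter's control, with differences of -0.0074, -0.15 and -1.72 on the log2 scale, so nearly all of the difference came from litter 3. The same direction in all 3 litters was seen downward in 15.9% of all tested genes. For the genotypes as a whole the ratio was 0.713 (95% interval 0.292 to 1.74; edgeR log2 fold change -0.49, SE 0.559, adjusted p = 0.922), and the log2 fold change was -0.14 without knockout 3, -1.16 without knockout 1 and -0.73 without control 2.

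Smarcd1 and Smarcd2 moved apart in knockout 3. Smarcd1 counts were 0.874, 0.892 and 0.553 of those of Smarcd2 in the controls, 0.505 and 0.528 in knockouts 1 and 2, and 4.79 in knockout 3. In the 5 other samples Smarcd2 thus had the higher count, and in knockout 3 the order was turned round. The mean log2 difference between genotypes was 0.52 with all samples (exact permutation p = 1; adjusted over the 4 pairs, 1) and -0.55 without knockout 3. Knockout 3 was also the sample with the lowest HSC markers and the highest sum of granulocyte and macrophage markers, and the part of these in the ratio was not tested.

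**Figure D4:**
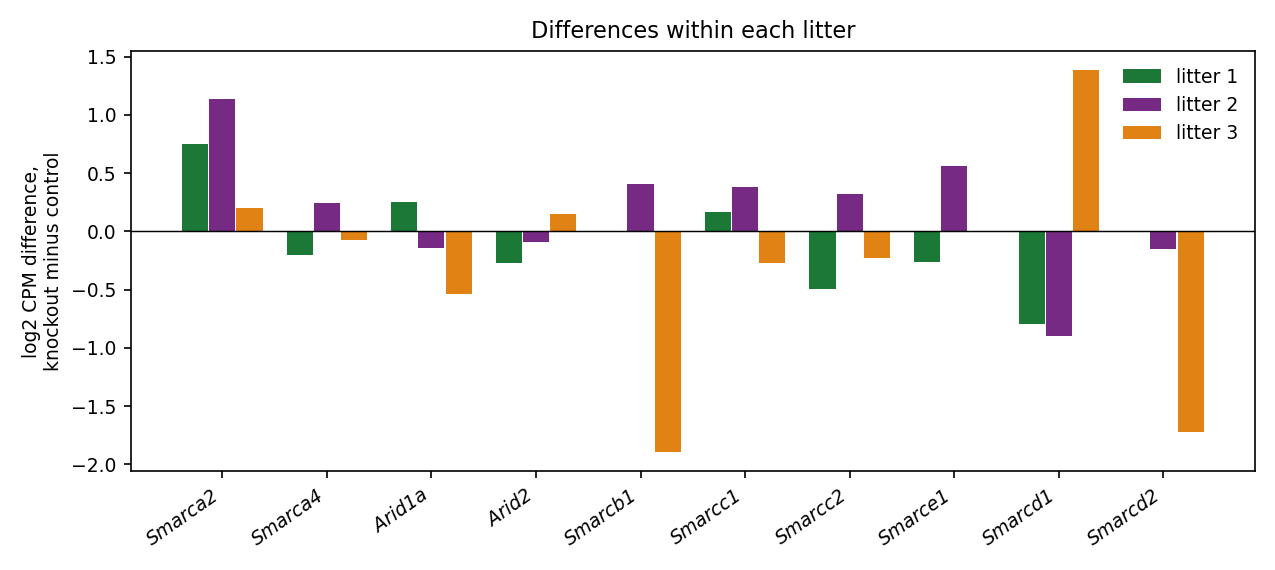
Difference in log2 CPM, knockout minus control (vertical axis), within litter 1, 2 and 3 for each of the 10 SWI/SNF genes (horizontal axis). Smarca2 is above 0 in every litter, and the longest bars, for Smarcb1 (-1.90), Smarcd2 (-1.72) and Smarcd1 (1.39), all belong to litter 3.

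Most of these genes varied more among knockouts than among controls. The coefficient of variation was larger in knockouts than in controls for 8 of the 10, as it was for 74.6% of all tested genes, with medians of 28.6% and 19.3%. Over all tested genes the medians were 58.4% and 33.7%. Knockout 3 was the highest or lowest of the 6 samples for 6 of the 10 genes (Smarca4, Smarcb1, Smarcd1, Smarcd2, Arid1a and Arid2), and for 54.8% of all tested genes. Knockout 2 was so for 4 of the 10 and for 39.1% of all tested genes. These shares are near those of the genes at large.

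Levels between genes were compared per kilobase of exon (CPM per kb, with exon lengths of the GENCODE M21 basic set). In controls the order ran from Smarcc1 at 36.9 ± 6.31, through Arid1a at 32.9 ± 0.623, Smarca4 at 32.4 ± 3.26, Smarcc2 at 24.4 ± 2.57, Smarcb1 at 21.7 ± 4.68, Smarce1 at 17.4 ± 6.83, Arid2 at 14.03 ± 1.97, Smarca2 at 10.9 ± 2.54 and Smarcd2 at 8.14 ± 2.78, to Smarcd1 at 5.64 ± 2.20 CPM per kb (SD, n = 3 each). The highest was 6.55 times the lowest. Among neighbours in this order, the samples were fully separated only between Smarca4 and Smarcc2, and the others overlapped. In knockouts Smarcc1 was again first at 39.04 ± 3.09 CPM per kb, Smarca2 stood at 17.7 ± 4.76 and so passed Arid2 at 13.6 ± 3.83, and no pair of neighbours was fully separated.

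In the rest of the complex no tested gene passed either, but the changes spread more widely. Of 19 other SWI/SNF subunits listed, 16 passed the filter on low counts, and 0 of these had an edgeR adjusted p under 0.05 (0% of all tested genes; the smallest was 0.753). At an unadjusted p under 0.05, edgeR called 1 and DESeq2 1 of the 16, where 6.51% and 9.41% of all tested genes were called. Their median log2 fold change was -0.13, with 9 below and 7 above 0, where the median over all tested genes was 0.01. The values ran from -2 to 0.68. Their median size without sign was 0.31, where it was 0.09 for the 10 genes and 0.52 for all tested genes. The groups did not overlap for 1 tested gene in each direction, where 14.1% of all tested genes did not overlap in either direction. Phf10, a PHD-finger subunit of PBAF, had 52.4, 68.0 and 67.0 CPM in the controls and 41.6, 37.2 and 41.5 CPM in the knockouts, a fitted ratio of 0.642 (95% interval 0.429 to 0.962; edgeR unadjusted p = 0.0354, adjusted p = 0.753). Every knockout was below every control, as for 7.74% of all tested genes. Actb, the cytoskeletal actin that is also a subunit of the complex, had 1068, 1039 and 1050 CPM in the controls and 1172, 1325 and 1478 CPM in the knockouts, a fitted ratio of 1.26 (95% interval 0.959 to 1.65; edgeR adjusted p = 0.795). Here every knockout was above every control, as for 6.39% of all tested genes. Dpf1, a subunit best known from neurons and not tested because of its low counts, had 97, 27 and 2 counts in the controls and 0, 1 and 0 in the knockouts.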

How the data were processed

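Counts per gene symbol came from 6 libraries of sorted HSCs, made from poly(A) RNA per the labels' protocols. The authors deposited whole-number counts for each sample, not normalized and not pooled. The submitters' processing notes name the build mm10 and, with no role given, CASAVA 1.8.4, TopHat2, Picard 1.126, HTSeq 0.6.0, DESeq 3.0 and bedtools 2.17.0. The annotation and strandedness are not given in the sources used here. The 5 closing tallies of each file, of reads outside genes or not placed (41% to 51% of all reads), were left out.

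Genes were kept with filterByExpr by group (13646, with all 10 SWI/SNF genes) and scaled by TMM. Genotypes were compared in edgeR 4.0.16 (R 4.3.3; glmQLFit and glmQLFTest, quasi-likelihood) without a litter term, at an adjusted p of 0.05. SE is the size of the fitted change divided by the root of F, and intervals are unadjusted. Log2 CPM used a prior count of 2. Single values were compared by exact permutation, whose smallest p is 0.1. DESeq2 1.42.0 was an alternative, with other factors, no filter, a litter block and each sample left out. The procedure was also run on simulated data, whose outcome is not given here, so nothing about its sensitivity is drawn from that run. Litter numbers in the labels pair the samples; deviations from genotype means correlated by -0.0224, -0.0752 and 0.0034 in litters 1 to 3. Coordinates are GENCODE M21 (GRCm38).

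The SWI/SNF genes, the other lists and the tests were chosen with earlier results of these data known. Named genes were the 10, Dpy30 and, of each other list, up to 6 whose genotypes do not overlap in CPM, by edgeR p. Mrc1 was named after its values were seen. Of the markers, Adgre1 is listed under its older symbol Emr1 and Hbb-b1 was not matched. PCR copies could not be removed, so counting errors cover counting only.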

Additional observations from a re-analysis of the deposited data

How the results depend on the processing

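With all alternatives tried (13 for each result on genes), 0 of the 10 SWI/SNF genes and 0 of the other subunits passed. Each log2 ratio had 8 alternatives, namely a prior count of 0.5, the litter block and each sample left out. The block leaves the mean difference of a ratio unchanged. Over all genes the count of 0 became 1 without a filter on low counts, 138 in DESeq2 and 277 in DESeq2 with litter as a block; with litter as a block edgeR gave 0, and leaving out 1 sample gave 0 to 0. The cause was not tested. The block, a pairing from the labels, changed no call of the 10; their median log2 fold change ranged from -0.16 (upper-quartile factors) to 0.18 (library size only). The median over all genes went from 0.01 to 0.23 under library size only, to -0.10 under upper-quartile factors and to -0.12 with the block. Smarca2 and Smarcd2 kept their sign throughout, as did the Smarca2 over Smarca4 ratio in its 8 alternatives (0.46 to 0.91). Smarca2 ran from 0.46 to 0.89, with adjusted p from 0.344 to 1. The other 8 changed sign. Under library size only the log2 fold change was 0.21 for Smarca4, 0.078 for Smarcc2, 0.14 for Arid1a and 0.14 for Arid2. Upper-quartile factors gave -0.037 for Smarcc1 and -0.077 for Smarce1. Smarca4 was 0.0060 with edgeR's RLE factors, 0.0060 in DESeq2 and 0.0059 in DESeq2 with the block. Smarcd1 was -0.14 with the block and -0.12 in DESeq2 with it. Leaving out 1 sample gave -0.094 to 0.076 for Smarca4, -0.93 to 0.19 for Smarcb1, -0.037 to 0.20 for Smarcc1, -0.40 to 0.16 for Smarcc2, -0.70 to 0.59 for Smarcd1, -1.16 to -0.14 for Smarcd2, -0.18 to 0.39 for Smarce1, -0.34 to 0.093 for Arid1a and -0.29 to 0.080 for Arid2. For log2 ratios it gave -0.090 to 0.50 for Smarcc1 over Smarcc2, -0.55 to 1.07 for Smarcd1 over Smarcd2 and -0.41 to 0.35 for Arid1a over Arid2.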

Other observations

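ATPases of other remodeler families were read from the same fit. Of 21 listed, 19 passed the filter on low counts, and 0 had an edgeR adjusted p under 0.05 (0% of all tested genes), with 1 at an unadjusted p under 0.05 in edgeR and 1 in DESeq2, where 6.51% and 9.41% of all tested genes were called. Their median log2 fold change was 0.06, with 7 below and 12 above 0. Chd2, a CHD-family remodeler, had 110.5, 123 and 101 CPM in the controls and 91.3, 52.1 and 45.95 CPM in the knockouts, a fitted ratio of 0.566 (95% interval 0.348 to 0.921; edgeR unadjusted p = 0.0273, adjusted p = 0.729). Every knockout was below every control, as for 7.74% of all tested genes. Smarca1, an ISWI-family ATPase below the filter, had 28, 119 and 9 counts in the controls and 7, 1 and 0 in the knockouts (litters 1, 2 and 3).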
